A study of Mus musculus with 13 samples.

Results

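D cyclins and the inhibitors that oppose them set the pace of the first gap phase of the cell cycle, and 9 mouse genes of this machinery were listed by name: the D cyclins Ccnd1, Ccnd2 and Ccnd3, cyclin G1 (Ccng1), the Cip/Kip inhibitors Cdkn1a, Cdkn1b and Cdkn1c, and the kinases Cdk4 and Cdk6. Of these 9, 7 were measured, among 8336 genes with a named probe in all. The kinases Cdk4 and Cdk6 have no named probe in the table used and were not analysed here.

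A D cyclin binds Cdk4 or Cdk6, and the active kinase phosphorylates the retinoblastoma protein, which then lets go of E2F factors that switch on genes for DNA replication. Cip/Kip proteins bind complexes of cyclin and kinase: p21, encoded by Cdkn1a, is a classical target of p53 and holds cells in the first gap phase, p27 (Cdkn1b) is kept high in resting cells, and p57 (Cdkn1c) is an imprinted gene expressed from the maternal copy and used in development. Adult cardiomyocytes rarely divide, whereas fibroblasts, endothelial cells and immune cells of the heart can, so these transcripts in a whole heart come from cells of several kinds. In muscle the D cyclins have also been linked with growth of cells that do not divide.

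Gene expression was measured on Illumina MouseRef-8 v2 bead arrays in whole hearts of male C57BL/6 mice, 8 to 10 weeks old, taken 1 week after surgery, with 1 array for each of 13 hearts. Transverse aortic constriction (TAC) is a band around the aortic arch that makes the left ventricle pump against a raised pressure, and sham-operated mice had surgery without the band. Tauroursodeoxycholic acid (TUDCA), a bile acid used as a chemical chaperone of protein folding in the endoplasmic reticulum, was given by daily oral gavage at 300 mg/kg from the day of surgery, and vehicle was water. The groups were TUDCA-TAC (4 hearts), Veh-TAC (3), TUDCA-Sham (3) and Veh-Sham (3). The labels name no transgene or deletion in any group.

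Levels are log2 signals after background correction and quantile normalization, and differences between groups are log2 fold changes with their standard error (SE), tested with limma (1 model, 4 groups). Benjamini-Hochberg adjustment ran over all 8336 genes, and calls needed an adjusted p under 0.05. Each gene was represented by its brightest probe, and a level of one probe is not set against that of another. In RNA of whole hearts, fewer cells of a type and less RNA per cell cannot be told apart.

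On every array 11647 to 12791 probes were detected above the negative controls. The lower quartile of raw intensity, a measure of background, was 164 to 270.4 in the TUDCA-TAC group, 303 to 309.9 in the Veh-TAC group, 259 to 306 in the TUDCA-Sham group and 311 to 315 in the Veh-Sham group. The lowest of these, 164, belonged to replicate 4 of the TUDCA-TAC group, whose array stood apart, and calls that turn on that heart are given with and without it. Cardiomyocyte markers (Myh6, Myl2 and Myl3) were detected on all 13 arrays. Myh7, the fetal myosin heavy chain that marks pressure overload, was higher in Veh-TAC over Veh-Sham hearts by 2.63 on the log2 scale (adjusted p = 0.00158 from limma), and Nppb, a natriuretic peptide of the loaded ventricle, by 1.04 (adjusted p = 0.0389), a value that may be too small because Nppb lay near the top of the scale in Veh-TAC hearts (16.01 ± 0.08, SD, n = 3). For Myh7 the log2 fold change of TUDCA-TAC over TUDCA-Sham hearts was 1.01 (adjusted p = 0.249 from limma), without overlap of the groups. For Nppb it was 0.59 (adjusted p = 0.384 from limma), with overlapping groups. Neither marker thus passed the test with TUDCA. The probe of Myh7 was dim in sham hearts, at log2 signals of 6.09 to 6.52.

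The 12 named probes of the 7 measured genes were detected on all 13 arrays. Cdkn1a was the member with the widest spread of group means, and Cdkn1c and Ccnd1 followed. In the assembly GRCm38.p6, Cdkn1a lies at chr17:29090979-29100722, Cdkn1c at chr7:143458339-143461059 and Ccnd1 at chr7:144929931-144939831.

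Promoter windows of 250 bases before to 50 after an annotated start were taken from the RefSeq table of GRCm38.p6, which held 8 windows for 6 of the 9 genes. Those of Cdkn1a and Ccng1 are shown because both genes are known targets of p53 and their transcripts had log2 fold changes of opposite sign after TAC with vehicle. Each line gives the 250 bases before the start on the strand of the gene, from 5′ to 3′, and capitals mark matches, on either strand, to the decamer bound by p53, the CCAAT box (CCAAT) or the GC box (GGGCGG).

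Cdkn1a, first start, chr17:29090729-29090978, plus strand: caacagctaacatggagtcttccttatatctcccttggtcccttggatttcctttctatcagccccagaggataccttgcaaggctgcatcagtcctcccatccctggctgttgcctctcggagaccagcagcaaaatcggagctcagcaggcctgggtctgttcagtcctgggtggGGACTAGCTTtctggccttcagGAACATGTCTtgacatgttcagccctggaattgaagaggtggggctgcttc

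Cdkn1a, second start, chr17:29093519-29093768, plus strand: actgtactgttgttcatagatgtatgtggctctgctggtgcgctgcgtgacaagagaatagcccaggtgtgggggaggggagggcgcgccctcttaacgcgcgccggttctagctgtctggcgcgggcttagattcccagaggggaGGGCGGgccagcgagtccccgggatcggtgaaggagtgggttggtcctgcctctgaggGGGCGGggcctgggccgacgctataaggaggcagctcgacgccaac

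Ccng1, chr11:40755287-40755536, minus strand: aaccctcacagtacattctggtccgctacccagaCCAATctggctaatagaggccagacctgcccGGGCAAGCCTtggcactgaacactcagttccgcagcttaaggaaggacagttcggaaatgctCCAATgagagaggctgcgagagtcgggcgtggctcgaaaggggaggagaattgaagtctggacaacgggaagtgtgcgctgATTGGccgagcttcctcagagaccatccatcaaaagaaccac

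The window at the first start of Cdkn1a held 2 matches to the p53 decamer, which begin 73 and 51 bases before the start, and the window of Ccng1 held 1, which begins 185 bases before it. A match to this decamer was found in 8.36% of all 32851 windows of the table. The GC box occurred in 5 of the 8 windows of these genes, among them the second start of Cdkn1a with 2 matches, beside 35.7% of all windows. The CCAAT box occurred in 3 of the 8 windows, beside 37.4% of all windows. E2F sites, searched as TTCGCGC and TTGGCGC on both strands, occurred in 0 of the 8 windows, beside 1.59% and 2.45% of all windows. The AP-1 site (TGANTCA, 7.81% of all windows) was found in 0 of the 8 windows, the core of the CRE (TGACGT, 7.51%) in 1 and the E box (CACGTG, 7.15%) in 2. These matches describe the letters of the windows and no binding was measured.

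After TAC with vehicle both calls fell among the inhibitors. Cdkn1a rose 2.73-fold in the Veh-TAC group, Cdkn1c fell, and none of the 3 D cyclins nor Ccng1 or Cdkn1b passed the test. These 2 calls among 7 members stand beside 24.99% of all genes called in the same comparison (2083 of 8336), a share of the same order. By the rule of over 1.5-fold and an unadjusted p under 0.05, 2 of 7 members passed, beside 17.97% of all genes. The groups did not overlap for 4 of 7 members, beside 43.1% of all genes. The median log2 fold change was 0.14 over the members and -0.03 over all genes.

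Cdkn1a had log2 signals of 10.61, 10.70 and 10.55 in Veh-TAC hearts, against 9.19, 9.27 and 9.04 in Veh-Sham hearts. Every Veh-TAC heart lay over 1 log2 unit above every Veh-Sham heart. The means were 10.62 ± 0.08 in the Veh-TAC group and 9.17 ± 0.12 in the Veh-Sham group (SD, n = 3 each), a log2 fold change of 1.45 (SE 0.15, adjusted p = 8.32e-05 from limma). This was the 139th largest rise of the 8336 genes. A dimmer probe of Cdkn1a gave a log2 fold change of 1.34 (SE 0.19). Leaving out each of the 13 hearts in turn kept the log2 fold change between 1.39 and 1.504 with the call in every case.

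Cdkn1c, which encodes p57, went the other way. Its log2 signals were 11.69, 11.48 and 10.90 in Veh-TAC hearts, against 12.17, 12.23 and 12.16 in Veh-Sham hearts. The Veh-TAC hearts were all lower and spread more widely, with replicate 3 the lowest. Cdkn1c averaged 11.35 ± 0.41 in the Veh-TAC group and 12.18 ± 0.04 in the Veh-Sham group (SD, n = 3 each), a log2 fold change of -0.83 (SE 0.20, adjusted p = 0.0113 from limma). Without any one of the 13 hearts the call was kept, at log2 fold changes of -0.998 to -0.60.

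Cdkn1b, which encodes p27, had a dim probe and differed little. Its log2 signals were 7.37, 7.45 and 7.47 in Veh-TAC hearts, against 7.29, 7.18 and 7.30 in Veh-Sham hearts. The groups did not overlap, yet the log2 fold change of 0.18 (SE 0.15, adjusted p = 0.438 from limma) did not pass the test. Its 95% confidence interval was -0.15 to 0.50.

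Among the D cyclins, the main partners of Cdk4 and Cdk6, levels after TAC with vehicle overlapped those after sham surgery. Ccnd1 had log2 signals of 12.33, 12.15 and 12.03 in Veh-TAC hearts, against 12.17, 11.90 and 12.10 in Veh-Sham hearts (log2 fold change 0.12, 95% confidence interval -0.18 to 0.41, adjusted p = 0.572 from limma). A second bright probe of Ccnd1 gave 0.16, and the third, dim probe gave 0.64 (SE 0.30) with overlapping groups. For Ccnd2 the log2 fold change was 0.19 (95% confidence interval -0.29 to 0.66) and for Ccnd3 it was 0.14 (-0.11 to 0.38), both with overlapping groups. The intervals leave room for changes of either sign.

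Ccng1, a cyclin that p53 induces and that acts with the phosphatase PP2A rather than in the retinoblastoma pathway, was bright in every heart. Its log2 signals were 14.66, 14.55 and 14.66 in Veh-TAC hearts, against 14.76, 14.86 and 14.73 in Veh-Sham hearts. All Veh-TAC hearts were lower, by a log2 fold change of -0.17 (SE 0.09, adjusted p = 0.199 from limma) that did not pass the test. The other probes of Ccng1 gave -0.21 and -0.14. Cdkn1a and Ccng1, both known targets of p53, thus had log2 fold changes of opposite sign in the same hearts, and of the pair only Cdkn1a passed the test.

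**Figure D1:**
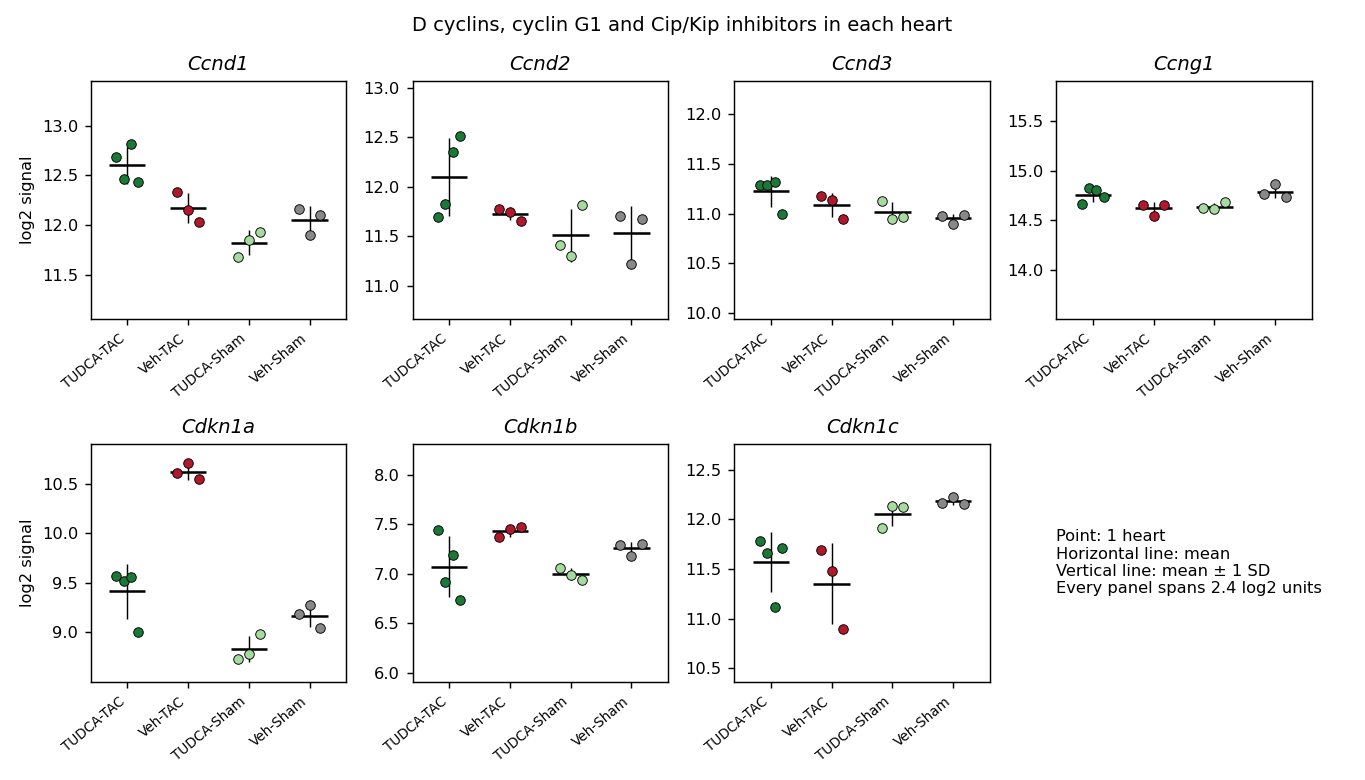
Log2 signal of the brightest probe of each measured gene (y axis) in the 4 groups (x axis), 1 point per heart, with the mean and 1 SD. The 3 Veh-TAC hearts sit at 10.55 to 10.70 for Cdkn1a, above all hearts of the other groups, and the 4 TUDCA-TAC hearts at 12.43 to 12.82 for Ccnd1 are above all others.

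With TUDCA the call after TAC fell on a D cyclin. Ccnd1 rose 1.72-fold in the TUDCA-TAC over the TUDCA-Sham group and was the 1 of 7 members called, beside 1.79% of all genes (149 of 8336). The 1.5-fold rule passed 2 of 7 members, Ccnd1 and Ccnd2, beside 6.23% of all genes. Ccnd2 passed it barely, at 1.50003-fold, and Cdkn1a barely missed it, at 1.49457-fold (unadjusted p = 0.00129 from limma). Groups without overlap were seen for 3 of 7 members (Ccnd1 and Cdkn1a higher, Cdkn1c lower), beside 14.98% of all genes. The median log2 fold change was 0.21 over the members and 0.00 over all genes.

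Ccnd1 had log2 signals of 12.69, 12.46, 12.82 and 12.43 in TUDCA-TAC hearts, against 11.68, 11.85 and 11.93 in TUDCA-Sham hearts. The groups lay apart with a wide gap. Ccnd1 differed by 0.78 on the log2 scale (SE 0.13, adjusted p = 0.0141 from limma). The second bright probe gave 0.86 (SE 0.14) and the third, dim one 1.00 (SE 0.28), both without overlap of the groups. The call was kept when each heart but 1 was left out in turn. Without TUDCA-Sham replicate 1 the log2 fold change was 0.71 and the adjusted p 0.0853.

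Ccnd2, the D cyclin that shares most of its partners with Ccnd1, had log2 signals of 11.70, 11.83, 12.35 and 12.51 in TUDCA-TAC hearts, against 11.41, 11.31 and 11.81 in TUDCA-Sham hearts. TUDCA-TAC replicates 3 and 4 were high, replicate 2 lay just above the highest sham heart and replicate 1 below it. The log2 fold change of 0.585 (SE 0.20) had an unadjusted p of 0.0139 and did not pass the test (adjusted p = 0.168 from limma). Without TUDCA-TAC replicate 4 it was 0.45 (adjusted p = 0.272). Ccnd3 had a log2 fold change of 0.21 (95% confidence interval -0.02 to 0.44, adjusted p = 0.359) and Ccng1 one of 0.12 (-0.06 to 0.30, adjusted p = 0.515).

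Of the inhibitors, Cdkn1a had log2 signals of 9.57, 9.52, 9.56 and 9.00 in TUDCA-TAC hearts, against 8.73, 8.78 and 8.98 in TUDCA-Sham hearts. All TUDCA-TAC hearts were higher, replicate 4 by the smallest margin. This difference was 0.58 on the log2 scale (SE 0.14, adjusted p = 0.0602 from limma), just short of the threshold, and 0.72 without replicate 4 (adjusted p = 0.00448). By the dimmer probe, whose groups overlapped, it was 0.34 (SE 0.18). The raw intensity of Cdkn1a on that array, 962, was the highest of the TUDCA-TAC group, where the others had 899, 915 and 945, and this array had the lowest background of all 13. With array background as a term in the model the log2 fold change of Cdkn1a was 0.76 (adjusted p = 0.0185 from limma). It passed the test in 7 of 26 alternative settings. The part of that background in the normalized value of replicate 4 was not tested.

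Cdkn1c had log2 signals of 11.78, 11.66, 11.12 and 11.71 in TUDCA-TAC hearts, against 11.91, 12.14 and 12.13 in TUDCA-Sham hearts. The TUDCA-TAC hearts were all lower, replicate 3 by the most. Their difference of -0.49 on the log2 scale (SE 0.19, unadjusted p = 0.0242) did not pass after adjustment (adjusted p = 0.222 from limma). Cdkn1b had a log2 fold change of 0.08 (95% confidence interval -0.23 to 0.38) with overlapping groups, and of 0.19 without TUDCA-TAC replicate 4.

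Set side by side in banded hearts, TUDCA and vehicle differed in both directions. Cdkn1a was 2.31-fold lower and Ccnd1 1.35-fold higher in TUDCA-TAC hearts relative to Veh-TAC hearts, and these were the 2 of 7 members called, beside 16.4% of all genes (1369 of 8336). All TUDCA-TAC arrays had a lower raw background than all Veh-TAC arrays, so background went with treatment in this comparison. With background as a term in the model, 140 genes were called in place of 1369. Under that term Cdkn1a kept its call and Ccnd1 lost it. The 1.5-fold rule passed 1 of 7 members, Cdkn1a, beside 11.6% of all genes. No overlap between the groups was seen for 3 of 7 members (Ccnd1 and Ccng1 higher, Cdkn1a lower), beside 26.2% of all genes. The median log2 fold change was 0.14 over the members and 0.01 over all genes.

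Cdkn1a averaged 9.41 ± 0.27 in the TUDCA-TAC group (SD, n = 4) and 10.62 ± 0.08 in the Veh-TAC group (SD, n = 3). The highest TUDCA-TAC heart, at 9.57, lay well below the lowest Veh-TAC heart, at 10.55. The log2 fold change was -1.21 (SE 0.14, adjusted p = 0.00121 from limma), the 70th largest fall of the 8336 genes. The dimmer probe gave -1.24 (SE 0.18). Without TUDCA-TAC replicate 4 the log2 fold change was -1.07, and with each of the 13 hearts left out in turn the call was kept. By the methods' t-test with Benjamini-Hochberg adjustment, in which 1 of 8336 genes passed, the adjusted p of Cdkn1a was 0.071.

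Ccnd1 averaged 12.60 ± 0.19 in the TUDCA-TAC group (SD, n = 4) and 12.17 ± 0.15 in the Veh-TAC group (SD, n = 3). The groups lay close together, the lowest TUDCA-TAC heart at 12.43 and the highest Veh-TAC heart at 12.33. The log2 fold change was 0.43 (SE 0.13, adjusted p = 0.0356 from limma). The second bright probe gave 0.54 without overlap of the groups. The third, dim probe gave 0.30 (SE 0.28), and its groups overlapped. The call of Ccnd1 was lost in 11 of 26 alternative settings (adjusted p from 0.0149 to 0.143), among them leaving out Veh-TAC replicate 2 or 3 or TUDCA-TAC replicate 1 or 3 (log2 fold changes of 0.42, 0.36, 0.40 and 0.36). It was also lost with background as a term (log2 fold change 0.53, adjusted p = 0.103 from limma).

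For the other members no test passed between the banded groups. Cdkn1b averaged 7.07 ± 0.31 in the TUDCA-TAC group (SD, n = 4) and 7.43 ± 0.06 in the Veh-TAC group (SD, n = 3), with TUDCA-TAC replicate 1 inside the Veh-TAC range. Its log2 fold change was -0.36 (unadjusted p = 0.0256, adjusted p = 0.104 from limma), and -0.48 without that heart (adjusted p = 0.0213). Ccnd2 had a log2 fold change of 0.37 (95% confidence interval -0.07 to 0.81), Ccnd3 of 0.14 (-0.09 to 0.37), Ccng1 of 0.14 (-0.04 to 0.32) and Cdkn1c of 0.22 (-0.20 to 0.63). Without TUDCA-TAC replicate 4 the values of Ccnd2 and Ccnd3 were 0.23 and 0.21. The 3 probes of Ccng1 all had TUDCA-TAC hearts above the Veh-TAC hearts without overlap, at log2 fold changes of 0.14, 0.17 and 0.32.

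**Figure D2:**
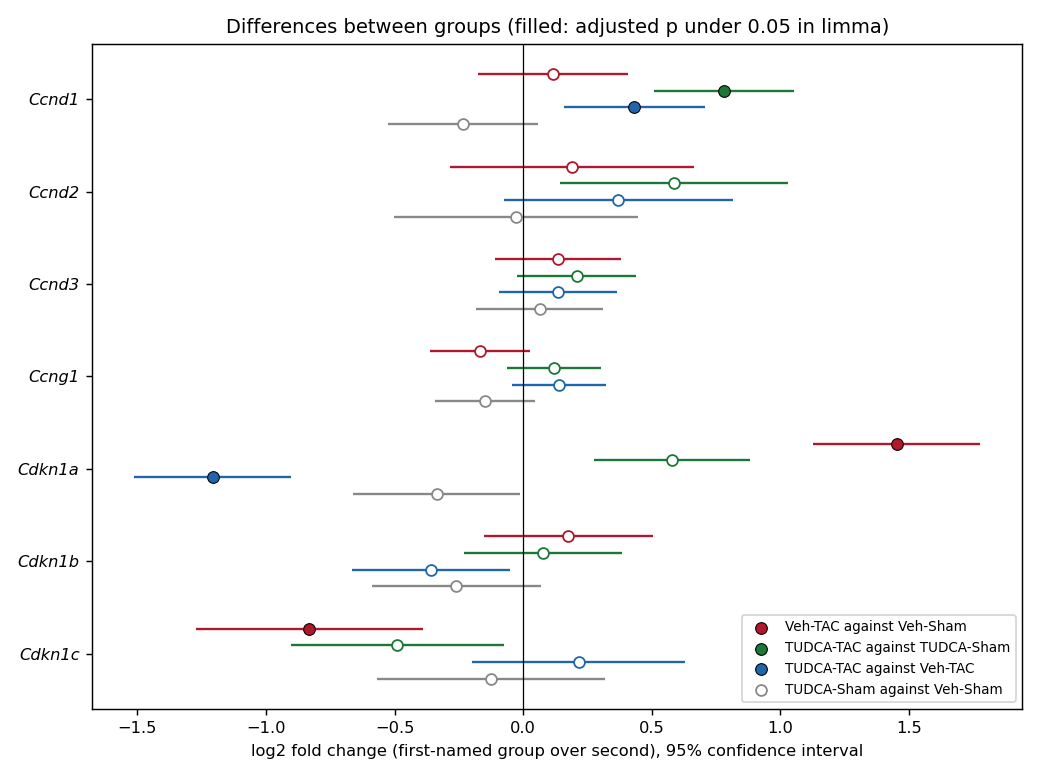
Log2 fold change of each measured gene (x axis) with its 95% confidence interval in 4 comparisons, the first-named group over the second; filled points have an adjusted p under 0.05 in limma. Cdkn1a stands out at 1.45 and -1.21, Cdkn1c at -0.83, and Ccnd1 at 0.78 and 0.43.

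The difference between both responses to TAC was tested as an interaction, the response with TUDCA minus that with vehicle. Cdkn1a was the 1 of 7 members called, beside 2.14% of all genes (178 of 8336), with a difference of -0.87 on the log2 scale (SE 0.20, adjusted p = 0.0494 from limma). The 1.5-fold rule passed 2 of 7 members, Cdkn1a and Ccnd1, beside 12.04% of all genes. This value lay at the edge of the threshold: 16 of 24 alternative settings lost the call (adjusted p from 0.00775 to 0.142), and it was lost when any heart but TUDCA-TAC replicate 4 was left out. The difference itself kept its sign throughout, between -0.94 and -0.71. The dimmer probe gave -1.004 (SE 0.26). Ccnd1 had a difference of 0.67 (SE 0.18, adjusted p = 0.0828), Ccng1 of 0.29 (unadjusted p = 0.0367, adjusted p = 0.216) and Cdkn1c of 0.34 (adjusted p = 0.54). For these 3 genes a difference between the responses was thus not shown, although Ccnd1 passed the test only with TUDCA and Cdkn1c only with vehicle.

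In sham hearts TUDCA moved no member past the test. Between TUDCA-Sham and Veh-Sham hearts 0 of 7 members and 0 of 8336 genes (0%) were called in limma, while 204 genes had an unadjusted p under 0.05, Cdkn1a among them. The 1.5-fold rule passed 0 of 7 members, beside 0.708% of all genes. Cdkn1a had log2 signals of 8.73, 8.78 and 8.98 in TUDCA-Sham hearts, against 9.19, 9.27 and 9.04 in Veh-Sham hearts (log2 fold change -0.34, unadjusted p = 0.0438, adjusted p = 1). By the brightest probes, the TUDCA-Sham hearts were all lower for 4 of 7 members, Ccng1, Cdkn1a, Cdkn1b and Cdkn1c. Beside this, 3.60% of all genes were lower without overlap, a share that counts this direction only. By the dimmer probe of Cdkn1a the groups overlapped (-0.23). They also overlapped by the other probes of Ccng1 (-0.07 and 0.07). The other log2 fold changes ran from -0.26 for Cdkn1b to 0.06 for Ccnd3.

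Ordered by group, Cdkn1a was highest in Veh-TAC hearts, followed by the TUDCA-TAC group, the Veh-Sham group and the TUDCA-Sham group, and of the neighbours only the TUDCA-TAC and Veh-Sham hearts overlapped. Ccnd1 was highest in TUDCA-TAC hearts, which lay apart from the Veh-TAC hearts next in order, while the Veh-TAC, Veh-Sham and TUDCA-Sham hearts overlapped from one to the next. Cdkn1c was lowest in Veh-TAC hearts, followed by the TUDCA-TAC group, the TUDCA-Sham group and the Veh-Sham group, with overlap only between both TAC groups. Cdkn1b was highest in Veh-TAC hearts, which lay apart from the Veh-Sham hearts next in order, and hearts of the TUDCA-TAC group, then of the TUDCA-Sham group, followed with overlap. For Ccnd2, Ccnd3 and Ccng1 all neighbours in the order overlapped.

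Genes with more than 1 probe gave a check on these values. The 3 probes of Ccnd1 correlated over the 13 hearts with Pearson's r of 0.99, 0.82 and 0.81, the 2 of Cdkn1a with 0.94, and the 3 of Ccng1 with 0.56 to 0.64, where the range of levels was narrow. Probes of a gene share the RNA of each heart, so these correlations describe the agreement of probes only.

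**Figure D3:**
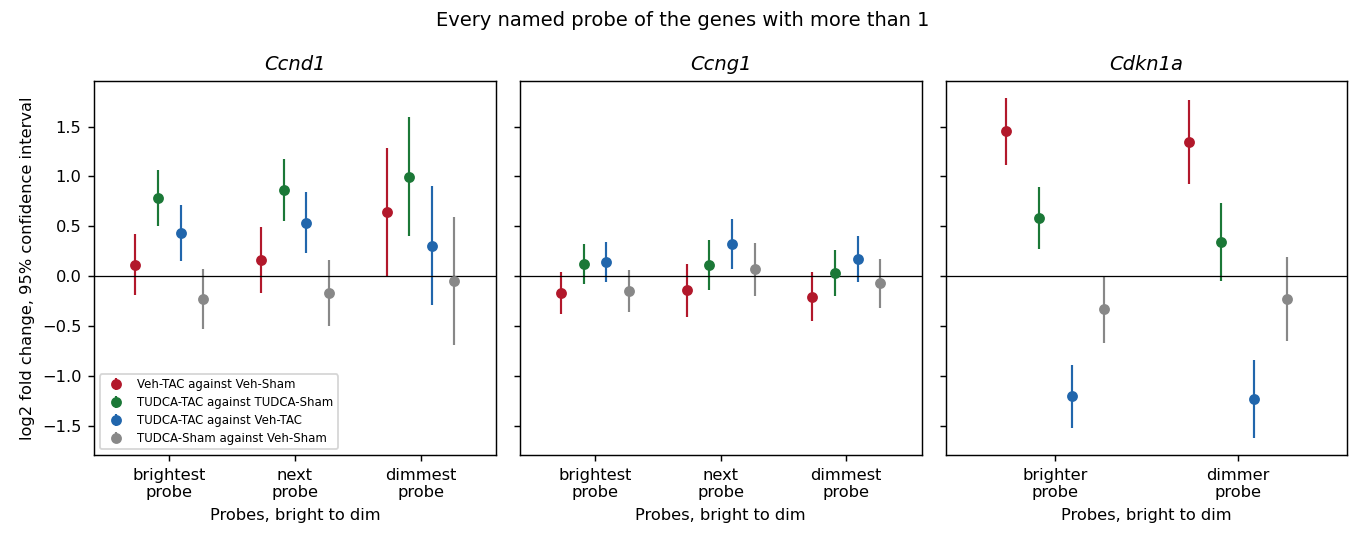
Log2 fold change with 95% confidence interval (y axis) for every named probe of Ccnd1, Ccng1 and Cdkn1a, ordered from bright to dim (x axis), in the 4 comparisons. The 2 probes of Cdkn1a lie at 1.45 and 1.34 for Veh-TAC against Veh-Sham, and the 3 probes of Ccnd1 at 0.78, 0.86 and 1.00 for TUDCA-TAC against TUDCA-Sham.

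Over the 13 hearts the members were related in sets. Ccnd1 went with Ccnd2 and Ccnd3 (Pearson's r of 0.72 for each, Spearman's rho 0.74 and 0.76), and Cdkn1a with Cdkn1b (r = 0.69, rho = 0.73), while Cdkn1c ran against Cdkn1a (r = -0.67, rho = -0.60). Between Cdkn1a and Ccnd1 the values were 0.28 and 0.54. All of these pool 4 groups that differ in level and share the normalization of the arrays, and they are given as a description.

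The genes whose pattern over the 13 hearts was most like that of Cdkn1a were Tspan17, a tetraspanin (r = 0.98), Rab31, a small GTPase of vesicle traffic (r = 0.98), and Meox1, a homeobox transcription factor (r = 0.98). Like Cdkn1a, all of them had their highest group mean in Veh-TAC hearts, and for Meox1 the means were 10.42 ± 0.50 in the TUDCA-TAC (SD, n = 4) and 11.75 ± 0.15 in the Veh-TAC group (SD, n = 3). The closest to Cdkn1c were Epn2, an endocytic adaptor (r = 0.95), Tmem205 (r = 0.94) and Smtnl2, a smoothelin-like protein (r = 0.93), all with their lowest mean in Veh-TAC hearts. For Ccnd1 they were Mcm5, a subunit of the replicative helicase (r = 0.87), Trim72, a membrane repair protein of striated muscle (r = 0.86), and Fscn1, which bundles actin (r = 0.85), all with their highest mean in TUDCA-TAC hearts. These were the highest of 8335 correlations for each gene. The genes were picked by correlation over the same hearts, so the shared highest or lowest group follows from that choice.

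Markers of other cell types moved in the same comparisons as Cdkn1a. Of 11 measured fibroblast markers, 8 were called higher in Veh-TAC over Veh-Sham hearts and 7 lower in TUDCA-TAC relative to Veh-TAC hearts. Their summed signal on the linear scale was 64237 to 75766 in TUDCA-TAC hearts, 91978 to 103913 in Veh-TAC hearts, 61632 to 70076 in TUDCA-Sham hearts and 62148 to 68576 in Veh-Sham hearts. Of 12 measured macrophage markers, 9 were higher in the first of these comparisons and 6 lower in the second. Their summed signal was 45492 to 48102 in TUDCA-TAC hearts, 66454 to 79506 in Veh-TAC hearts, 37432 to 50577 in TUDCA-Sham hearts and 42288 to 43199 in Veh-Sham hearts. The defining fibroblast markers Col1a1, Col1a2 and Col3a1 were detected on all 13 arrays, and Cd68, Csf1r and Emr1 of the macrophage list have no named probe in the table used. The summed cardiomyocyte markers were 481853 to 561014 in TUDCA-TAC hearts, 469248 to 499883 in Veh-TAC hearts, 488120 to 526769 in TUDCA-Sham hearts and 483553 to 528832 in Veh-Sham hearts. Myl2 and Myl3 lay near the top of the scale on all arrays, so this sum cannot show whether cardiomyocyte RNA differed.

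Smooth muscle and pericyte markers had sums of 65708 to 72671 in TUDCA-TAC hearts, 67486 to 90489 in Veh-TAC hearts, 51125 to 57120 in TUDCA-Sham hearts and 49741 to 56688 in Veh-Sham hearts, without overlap between TAC and sham under either treatment, and 1 of 7 was called higher with vehicle and 0 with TUDCA. Erythrocyte markers had sums of 42536 to 78032 in Veh-TAC hearts, against 83319 to 84527 in Veh-Sham hearts, with 2 of 5 called lower. Fat cell markers had sums of 5549 to 5880 in Veh-TAC hearts, against 6633 to 7241 in Veh-Sham hearts, with 0 of 4 called. Of 10 endothelial markers, 1 was called higher with vehicle, and of the lymphocyte list 1 gene was measured and not called. Beside the rise of Ccnd1 in TUDCA-TAC over TUDCA-Sham hearts, 2 of 11 fibroblast markers were called higher and no marker of the other lists was called in either direction. The part of cell numbers in the levels of Cdkn1a, Cdkn1c and Ccnd1 was not tested.

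Around the D cyclins and their inhibitors, 7 lists of genes of the same machinery were read in the same fit. The lists share some genes, Cdk1 and Ccng2 among them. Over all genes, 12.5% were called higher and 12.5% lower in Veh-TAC over Veh-Sham hearts, 1.02% and 0.768% in TUDCA-TAC over TUDCA-Sham hearts, and 8.17% and 8.25% in TUDCA-TAC relative to Veh-TAC hearts, with medians of -0.03, 0.00 and 0.01. Median scaling of the arrays split these calls as 1356 higher and 357 lower in place of 1045 and 1038, 202 and 30 in place of 85 and 64, and 358 and 542 in place of 681 and 688. The lists were put together with earlier results of these data known, and in sham hearts no gene of any list was called. The inhibitor Cdkn2b (p15, which blocks Cdk4 and Cdk6 directly) had a course like that of Cdkn1a. Its log2 signals were 7.73, 7.88, 7.79 and 7.37 in TUDCA-TAC hearts, 8.65, 9.59 and 8.95 in Veh-TAC hearts, 7.09, 7.87 and 7.44 in TUDCA-Sham hearts and 7.18, 7.69 and 6.98 in Veh-Sham hearts. The Veh-TAC hearts stood above all others. With vehicle Cdkn2b rose by 1.78 on the log2 scale (adjusted p = 0.000729), it was lower in TUDCA-TAC relative to Veh-TAC hearts (-1.37, adjusted p = 0.00533), and the difference of the responses was -1.55 (adjusted p = 0.0494 from limma), a call lost in 16 of 24 alternative settings. Of the 4 measured genes on this list of INK4 and other inhibitors, Cdkn2b was the 1 called.

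Of 12 measured RB family and E2F genes, 3 were higher and 0 lower in Veh-TAC over Veh-Sham hearts, with a median log2 fold change of 0.14. E2f1 and E2f3, activators of genes for DNA replication, had log2 fold changes of 1.18 (adjusted p = 0.00226) and 1.36 (adjusted p = 0.00184) with vehicle. The other gene called higher was E2f5, a repressor, by 0.34 (adjusted p = 0.0467 from limma). With TUDCA the log2 fold change was 1.17 for E2f1 (adjusted p = 0.0194 from limma) and 0.26 for E2f3 (adjusted p = 0.621). The difference of the responses of E2f3 was -1.11 (adjusted p = 0.0955). Both genes had dim probes in sham hearts, at log2 signals of 6.46 to 6.82 for E2f1 and 6.20 to 7.18 for E2f3. In TUDCA-TAC relative to Veh-TAC hearts, E2f5, a repressor, was lower (log2 fold change -0.46, adjusted p = 0.0149), and Rbbp7, a histone-binding partner of the retinoblastoma protein, and E2f6, another repressor, were higher by 0.39 (adjusted p = 0.012) and 0.32 (adjusted p = 0.0486).

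Among genes of S phase and mitosis, 8 of 16 measured were higher and 1 lower in Veh-TAC over Veh-Sham hearts, and 6 were higher and 0 lower in TUDCA-TAC over TUDCA-Sham hearts, at median log2 fold changes of 0.62 and 0.63. Cdk1, the kinase of mitosis, had log2 fold changes of 1.76 with vehicle (adjusted p = 0.000982) and 1.67 with TUDCA (adjusted p = 0.0137). Cdc20, an activator of the anaphase-promoting complex, had 1.68 (adjusted p = 0.000903) and 1.62 (adjusted p = 0.0125 from limma). In sham hearts both probes were dim, at log2 signals of 5.52 to 6.60 for Cdk1 and 6.36 to 7.20 for Cdc20. Their folds thus start from a low level. Mcm2, a subunit of the replicative helicase, fell with vehicle (log2 fold change -0.43, adjusted p = 0.0259) and was higher in TUDCA-TAC relative to Veh-TAC hearts by 0.99 (adjusted p = 0.00145), with a difference between the responses of 1.05 (adjusted p = 0.0209), a call lost in 6 of 24 alternative settings. Mcm4, of the same helicase, was the other gene called between the banded groups (0.42, adjusted p = 0.0261). Mcm2 had log2 signals of 7.81, 7.91, 7.79 and 7.88 in TUDCA-TAC hearts, against 7.11, 6.79 and 6.68 in Veh-TAC hearts. The groups lay well apart.

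The p53 list, beside Cdkn1a and Ccng1, held 22 measured genes, of which 5 were higher and 1 lower in Veh-TAC over Veh-Sham hearts (median log2 fold change 0.23). Bbc3 (PUMA, which promotes apoptosis) and Phlda3 (an inhibitor of Akt) had log2 fold changes of 0.98 (adjusted p = 0.000307) and 1.10 (adjusted p = 0.00469), whereas Gadd45a, a stress protein that binds p21, fell by 0.72 on the log2 scale (adjusted p = 0.0105 from limma). In TUDCA-TAC relative to Veh-TAC hearts 1 gene was higher and 5 were lower (median -0.22), Bbc3 by a log2 fold change of -0.71 (adjusted p = 0.00373) and Ddit4, an inhibitor of mTORC1, by -0.90 (adjusted p = 0.00533). Ddit4 was also the 1 gene of the list called in TUDCA-TAC over TUDCA-Sham hearts (-0.74, adjusted p = 0.046). Between the banded groups Gadd45a was the 1 higher gene (0.66, adjusted p = 0.0187). The list thus held genes on the side of Cdkn1a and genes on the other.

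Of 6 other cyclins measured, Ccnc, which works with the Mediator complex, was the 1 higher in Veh-TAC over Veh-Sham hearts (0.40, adjusted p = 0.0207), and Ccng2, the close relative of Ccng1, was lower in TUDCA-TAC relative to Veh-TAC hearts (-0.47, adjusted p = 0.0232). Ccng2 is also counted among the lower genes of the p53 list. Of 15 other cyclin-dependent kinases and activators, Cdk14, a kinase with a part in Wnt signalling, was the 1 besides Cdk1 called in Veh-TAC over Veh-Sham hearts (1.28, adjusted p = 0.00124), and it was lower in TUDCA-TAC relative to Veh-TAC hearts (-0.79, adjusted p = 0.0187). Among 19 genes for turnover of D cyclins and Cip/Kip proteins, 0 were called in either response to TAC by limma, where 2 with vehicle and 3 with TUDCA had an unadjusted p under 0.05. Of all 8336 genes, 3110 with vehicle and 1382 with TUDCA had one. Between TUDCA-TAC and Veh-TAC hearts 7 of the 19 had one, beside 2603 of all 8336 genes, and 1 was called. That gene, Usp2, a deubiquitinase that stabilises cyclin D1 protein in human cells, was higher in TUDCA-TAC hearts (0.81, adjusted p = 0.00936). Its log2 signals were 12.10, 12.16, 12.12 and 12.70 in TUDCA-TAC hearts, against 11.62, 11.26 and 11.51 in Veh-TAC hearts. The groups did not overlap and TUDCA-TAC replicate 4 was the highest heart.

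**Figure D4:**
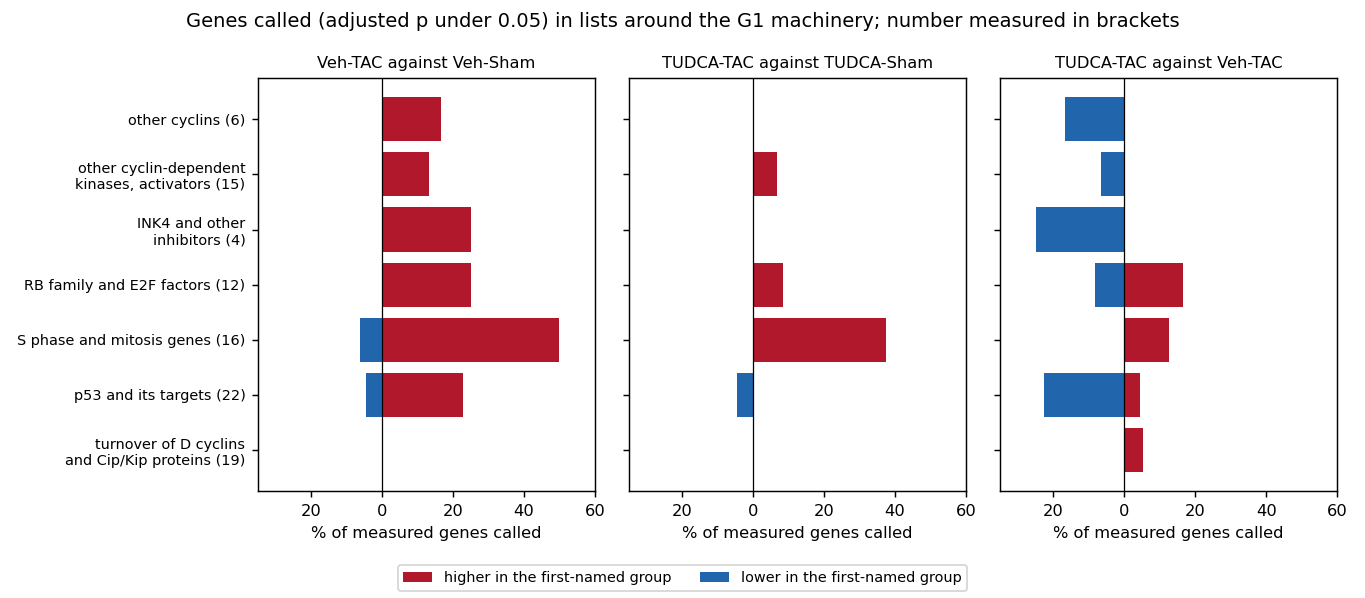
Percent of the measured genes of 7 lists called at an adjusted p under 0.05 (x axis, higher to the right and lower to the left of 0), for 3 comparisons, with the number measured in brackets. S phase and mitosis genes have 8 of 16 higher with vehicle and 6 with TUDCA, and the p53 list has 5 higher with vehicle and 5 lower in TUDCA-TAC against Veh-TAC hearts.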

How the data were processed

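The authors deposited unprocessed bead intensity of 25697 probes for 13 arrays, exported from GenomeStudio v2011.1, each with a detection p-value. The authors also deposited normalized log2 values for 11732 probes, which equal log2 intensities quantile normalized over those probes to within 5e-07. From the raw intensities, background was removed by normexp (limma 3.58.1, R 4.3.3; offset 16), arrays were quantile normalized, and 13557 probes passed a filter (detection p-value under 0.05, 3 arrays or more). The probe table named 11078 of them, and the brightest stood for each of 8336 genes.

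A means model of 4 groups was fitted by limma (eBayes, two-sided). Alternatives changed offset, scaling, filter, probe choice, spread, weights, a background term, a replicate block and the hearts used. The slide could not be used, since the headers give none. The fit was tested on simulated data. Members and lists were chosen with earlier results of these data known. Genes named were the members, the genes most like 3 of them, Myh7, Nppa and Nppb, and per list up to 2 rising and 2 falling calls by smallest p, in the vehicle response and in each other comparison. Nppa, near saturation on all arrays, gives no usable fold. The p53 decamer was added later. Replicate numbers are those of the labels' descriptions. Titles carry other animal numbers, and replicate 4 of the TUDCA-TAC group is the heart titled TUDCA-TAC 1. P-values from limma set each difference against a spread between hearts that is pooled over the 4 groups and moderated across genes. The number of arrays limits precision.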

Additional observations from a re-analysis of the deposited data

Results flagged for a closer look

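Replicate 4 of the TUDCA-TAC group lay far from the other hearts of its group for 4 genes, out of 28 genes looked at in this group of 4. In a single such test chance flags about 1 in 20. The 28 tests share the same arrays, and many genes were picked from calls in these data, so the count cannot be set against that rate. The log2 signal of replicate 4 was 9.00 for Cdkn1a, where the others had 9.52 to 9.57, and 11.00 for Ccnd3, where the others had 11.29 to 11.32. For Usp2 it was 12.70 against 12.10 to 12.16. Nppb, the natriuretic peptide raised by load on the ventricle, had 15.86 to 15.94 in the others, near the top of the scale. In replicate 4 it was 14.67, where Veh-Sham hearts had 14.83 to 15.06 and TUDCA-Sham hearts 14.31 to 15.48. The array of this heart, replicate 4, also had the lowest background, and the part of either in these values was not tested.

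The difference of the responses to TAC, TUDCA minus vehicle, passed limma's interaction test for Cdkn1a (-0.87 on the log2 scale, adjusted p = 0.0494), Cdkn2b (-1.55, adjusted p = 0.0494), E2f5 (-0.68, adjusted p = 0.0494) and Mcm2 (1.05, adjusted p = 0.0209). These calls were not firm. Of 24 alternative settings, 16 lost the call for Cdkn1a, 16 for Cdkn2b, 18 for E2f5 and 6 for Mcm2 (highest adjusted p of 0.142, 0.132, 0.141 and 0.0718). With each of 13 hearts left out in turn, Cdkn1a, Cdkn2b and E2f5 kept the call in 1 fit each and Mcm2 in 7.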

How the results depend on the processing

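Limits first: 3 or 4 hearts a group, a dim probe for Cdkn1b, 1 array with a low background, and RNA of mixed cells. Cdk4 and Cdk6 had no named probe. The probes of Cdk1, Cdc20, E2f1, E2f3, Mcm2 and Myh7 were also dim in sham hearts. The 6 calls of members were read under 26 alternative settings (24 for the difference of the responses); 122 of 154 values kept the call and none changed sign. Of 742 values for results without a call, 720 stayed so, 11 passed the test and 11 changed sign. Median scaling raised the median of all genes to 0.12 in both responses to TAC. Counts of members called moved as follows, and the cause was not tested. For Veh-TAC against Veh-Sham, 2 members became 1 under the methods' t-test after Benjamini-Hochberg adjustment, which lost Cdkn1c (adjusted p = 0.103). For TUDCA-TAC against TUDCA-Sham, 1 became 2, with Cdkn1a added, under median scaling, an eBayes trend, array weights, the replicate block, the background term, and without TUDCA-TAC replicates 3 and 4; it became 2 by the rule of over 1.5-fold and an unadjusted p under 0.05, and 0 with both groups alone or by the t-test (0 to 2 over left-out hearts). For TUDCA-TAC against Veh-TAC, 2 became 1 under median scaling, no filter, the mean of probes, both groups alone, the background term, without TUDCA-TAC replicates 3 and 4, and by the 1.5-fold rule in limma or the t-test; it became 0 by the adjusted t-test (1 to 2 over left-out hearts). For the difference of the responses, 1 became 2 in the authors' table, with array weights and by the 1.5-fold rule, and 0 with no filter, the replicate block, the background term or without TUDCA-TAC replicates 3 and 4 (0 to 1 over left-out hearts). An equal count did not always hold the same genes. Without TUDCA-TAC replicate 1, Cdkn1b in place of Ccnd1 was called beside Cdkn1a for TUDCA-TAC against Veh-TAC. Without Veh-TAC replicate 1, Ccnd1 in place of Cdkn1a was called for the difference (adjusted p of 0.0492 and 0.0509 from limma). Hearts with the same replicate number deviated together in some pairs and apart in others (18 pairs, r from -0.38 to 0.44, 8 over 0.1). So did hearts whose titles share an animal number (8 pairs, r from -0.39 to 0.38, 3 over 0.1, checked after seeing the data). A pairing of animals was thus not shown, and shared handling of arrays was not tested. Under the replicate block, 804 in place of 1369 genes were called for TUDCA-TAC against Veh-TAC. The counts were 223 in place of 149 for TUDCA-TAC against TUDCA-Sham and 89 in place of 178 for the difference. Only the TUDCA-TAC group has a replicate 4, so the block also takes that heart out of the comparisons. Leaving out that heart without a block gave counts near these, 918, 239 and 94 in the same order. Over all genes, counts that moved by over 1.5 times were, for Veh-TAC against Veh-Sham (2083), 906 by the adjusted t-test and 1205 to 2324 over left-out hearts; for TUDCA-TAC against TUDCA-Sham (149), 232 under median scaling, 431 with array weights, 0 with both groups alone or by the t-test and 11 to 239 over left-out hearts; for TUDCA-TAC against Veh-TAC (1369), 900 under median scaling, 538 with both groups alone, 2128 with array weights, 140 with the background term, 891 without TUDCA-TAC replicates 3 and 4, 1 by the t-test and 419 to 1332 over left-out hearts; and for the difference (178), 277 in the authors' table, 45 with no filter, 892 with array weights, 39 with the background term, 93 without TUDCA-TAC replicates 3 and 4 and 8 to 401 over left-out hearts. Changes of sign concerned 4 small values: Ccnd2 for TUDCA-Sham against Veh-Sham (0.0323 under median scaling; -0.18 to 0.0759 over left-out hearts), Cdkn1b for the difference of the responses (0.0128 under the replicate block, 0.0601 with the background term, 0.0074 without TUDCA-TAC replicates 3 and 4; -0.22 to 0.0128 over left-out hearts), Cdkn1b for TUDCA-TAC against TUDCA-Sham (-0.047 to 0.19) and Cdkn1c for TUDCA-TAC against Veh-TAC (-0.0125 to 0.38).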
